A study of Mus musculus with 19 samples.

Results

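The genes described here are 8 transcription factors of the hepatocyte, Hnf4a, Foxa1, Foxa2, Foxa3, Cebpa, Cebpb, Onecut1 and Prox1. They were chosen with earlier results of these data known, though no limit was set on their values. Each was taken by symbol from the 55421 genes counted in the series, and each symbol matched 1 gene. Their transcripts were counted in 19 RNA libraries from the livers of 15 adult male C57BL/6 mice. The mutants' transgene encodes c-Jun joined to Fra-2 as 1 AP-1 dimer and is switched on by taking doxycycline away. Controls are their littermates, and doxycycline was removed in both genotypes at 3 weeks of age. Livers of 3 mutants and 6 controls were taken 2 months later. Livers of another 3 mutants and 3 controls were taken 9 months later, and each of these mutants gave visible tumours (2 from mutant 1, 1 each from mutants 2 and 3) and 1 sample of liver with no visible tumour, called tumour-free here. The promoter that drives the transgene is not given in the sources used here. Bulk tissue was sequenced, labelled as mostly hepatocyte, so that fewer cells of a type and less RNA per cell cannot be told apart in any value below.

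HNF4A is a nuclear receptor that binds the enhancers of much of the hepatocyte programme, and its loss in adult mouse liver is known to take down lipid, bile acid and coagulation genes. The FOXA proteins are pioneer factors that open closed chromatin in the embryonic liver bud and later work beside HNF4A. C/EBP-alpha holds hepatocytes in a resting, metabolic state, while C/EBP-beta is induced in the acute phase response and in regeneration. HNF6, the product of Onecut1, and PROX1 act in the split between hepatocyte and bile duct fates, and PROX1 also restrains HNF4A activity. These factors bind each other's promoters and are usually described as a network. AP-1 dimers bind a short palindrome and share many liver enhancers with C/EBP factors.

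The sequence before the annotated start is shown for the genes whose values the account below turns on. Each line gives 250 bases 5′ of a RefSeq start in GRCm38.p6, read 5′ to 3′ on the gene's own strand. Capitals mark in Foxa1 a FOXA motif (TGTTTAC or GTAAACA) and in Cebpb a CRE-like motif (TGACGCA or TGCGTCA). The upstream Hnf4a start, which lies within the antisense gene described below, and Onecut1 have none of these.
Hnf4a, upstream start, chr2:163506607-163506856, + strand: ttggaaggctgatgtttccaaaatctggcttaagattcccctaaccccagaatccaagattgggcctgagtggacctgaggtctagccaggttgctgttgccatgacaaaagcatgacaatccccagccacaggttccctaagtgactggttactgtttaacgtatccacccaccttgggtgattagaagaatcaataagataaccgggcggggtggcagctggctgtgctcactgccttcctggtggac
Foxa1, chr12:57546112-57546361, - strand: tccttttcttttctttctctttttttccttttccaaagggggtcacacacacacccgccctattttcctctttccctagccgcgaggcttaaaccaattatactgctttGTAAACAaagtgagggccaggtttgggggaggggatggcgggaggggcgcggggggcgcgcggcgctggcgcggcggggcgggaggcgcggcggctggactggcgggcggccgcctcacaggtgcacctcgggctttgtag
Cebpb, chr2:167688665-167688914, + strand: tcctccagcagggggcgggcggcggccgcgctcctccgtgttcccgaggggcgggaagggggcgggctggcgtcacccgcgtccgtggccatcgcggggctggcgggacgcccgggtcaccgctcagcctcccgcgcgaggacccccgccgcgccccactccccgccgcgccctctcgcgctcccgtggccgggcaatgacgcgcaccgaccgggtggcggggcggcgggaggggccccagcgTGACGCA
Onecut1, chr9:74861671-74861920, + strand: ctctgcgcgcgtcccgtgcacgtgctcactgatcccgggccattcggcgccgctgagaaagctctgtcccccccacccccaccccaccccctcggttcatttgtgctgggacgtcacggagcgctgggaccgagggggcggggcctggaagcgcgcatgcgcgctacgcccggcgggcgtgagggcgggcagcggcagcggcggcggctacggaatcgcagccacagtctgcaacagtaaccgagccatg

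Hnf4a also has a downstream start, known as the promoter of adult liver. The FOXA motif lay 141 bases before the Foxa1 start, in 1 of the 12 windows scanned for the 8 genes (several have more than 1 start) and in 3.17% of 32851 windows of the same length before all RefSeq starts. The CRE-like motif lay 7 bases before the Cebpb start, in 1 of the 12 windows and in 1.75% of all. The AP-1 palindrome TGANTCA lay in 0 of the 12 windows and in 6.75% of all, and the same held for the C/EBP motif TTGCNNAA (0 of 12, 9.56% of all) and the STAT5 motif TTCNNNGAA (0 of 12, 7.02% of all). The CRE TGACGTCA (1.55% of all) and the HNF4 motif CAAAGTCCA (0.384% of all) also lay in 0 of the 12. The CCAAT box lay in 5 of the 12 and in 33.9% of all, and the TATA motif TATAAA in 4 of the 12 and in 12.4% of all. Both strands were searched with 9 motifs in all, the CRE and CRE-like motifs begin with the same letters, and a match is only a run of letters.

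The libraries held 14294611 to 22062341 counts each. Levels are CPM, counts scaled to one common library total, after TMM scaling, given as mean ± SD over animals, changes are log2 ratios ± SE (standard error), and p was adjusted over all genes tested by Benjamini-Hochberg after edgeR's quasi-likelihood test. The time points were sequenced in separate runs, so that a level at 9 months against one at 2 months cannot be told apart from the run. The transgene check held in every library for Fosl2, the gene of Fra-2, at 640 to 887 CPM in 2-month mutants against 8.37 to 19.2 CPM in their controls, and at 405 to 758 CPM in tumours and 788 to 936 CPM in tumour-free tissue against 9.36 to 19.8 CPM in 9-month controls. Jun, the gene of c-Jun, was at 533 to 683 CPM in 2-month mutants against 10.5 to 25.8 CPM in controls, but reached 387 CPM in 1 of the 9-month controls, number 1, whose immediate early genes also summed to 3757 CPM against 281 and 169 CPM in controls 2 and 3. The hepatocyte markers Alb, Ttr, Apoa1 and 6 others were detected in all groups and summed to 59626 to 76508 CPM in 2-month mutants against 131101 to 159138 CPM in controls, and to 60699 to 89467 CPM in tumours and 59625 to 61872 CPM in tumour-free tissue against 121608 to 131393 CPM in controls. Of these 9 markers 4 fell and 1 rose at 2 months, 4 fell and 1 rose in tumour-free tissue, and 3 fell and 0 rose in tumours. Of 8 macrophage markers, 5 rose at 2 months, 7 in tumour-free tissue and 7 in tumours, and their sum was 471 to 726 CPM in 2-month mutants against 219 to 444 CPM in controls, and 316 to 529 CPM in tumours and 437 to 483 CPM in tumour-free tissue against 189 to 254 CPM in 9-month controls. Of 8 stellate cell markers, 4 rose at 2 months, 4 in tumour-free tissue and 3 in tumours. Of 8 sinusoidal endothelial markers 4 fell and 1 rose in tumour-free tissue. At 2 months 0 of them fell and 1 rose, and in tumours 1 fell and 1 rose. Lymphatic endothelium also expresses Prox1. Its markers summed to 123 to 192 CPM in 2-month mutants against 59.5 to 97.4 CPM in controls. At 9 months they summed to 109 to 413 CPM in tumours and 316 to 350.3 CPM in tumour-free tissue, against 72.1 to 87.4 CPM in controls. Of 6 such markers, 4 had enough counts to test at 2 months, where 1 rose and 0 fell. At 9 months 3 were tested, of which 2 rose in tumour-free tissue and 1 in tumours, and 0 fell. Reln stands in both this list and the stellate list. The 8 bile duct markers summed to 127 to 567 CPM in 2-month mutants and 49.4 to 101 CPM in controls, with 1 of the 8 at 0 in all these mutants, and to 64.0 to 3044 CPM in tumours and 72.4 to 209 CPM in tumour-free tissue against 55.1 to 123 CPM in 9-month controls. The part of these cell mixtures in the values below was not tested.

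All of the 8 transcripts but Onecut1 and Cebpb missed the threshold in every comparison, while 25.1% to 42.7% of all genes passed it in the 3 comparisons with controls. At 2 months 1 of the 8, Onecut1, fell in mutants, where 42.7% of 13773 genes tested passed the threshold (22.3% higher, 20.4% lower). In tumour-free tissue at 9 months 0 of the 8 passed, where 34.9% of 14352 genes did (18.1% higher, 16.8% lower), and 2 of the 8 had an unadjusted p under 0.05. DESeq2 and limma voom each called 1 of the 8 there, Cebpb. At 2 months DESeq2 called Onecut1 and Foxa3, and limma voom called Foxa3 alone. In tumours against 9-month controls 1 of the 8, Cebpb, fell, where 25.1% of 14332 genes passed (13.8% higher, 11.3% lower). The median absolute log2 change of the 8 was 0.12 at 2 months, 0.29 in tumour-free tissue and 0.22 in tumours, against 0.38, 0.45 and 0.53 over all genes tested in the same comparisons. The values over all genes, here and below, were not matched to the 8 for expression level. The 95% interval of the change lay within a 2-fold change either way for 6 of the 8 at 2 months (all but Foxa3 and Onecut1), for 6 in tumour-free tissue (all but Cebpb and Onecut1) and for 3 in tumours (Hnf4a, Foxa2 and Prox1), against 61.0%, 49.9% and 37.8% of all genes tested. The comparisons of tumours and of tumour-free tissue share the same 3 controls. Scaling by library size alone, without the composition factor, shifts the median of all genes by 0.29, 0.42 and 0.48 in the 3 comparisons. It then calls 4 of the 8 higher in tumour-free tissue (Hnf4a, Foxa1, Foxa2 and Prox1) and 0 in tumours.

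**Figure D1:**
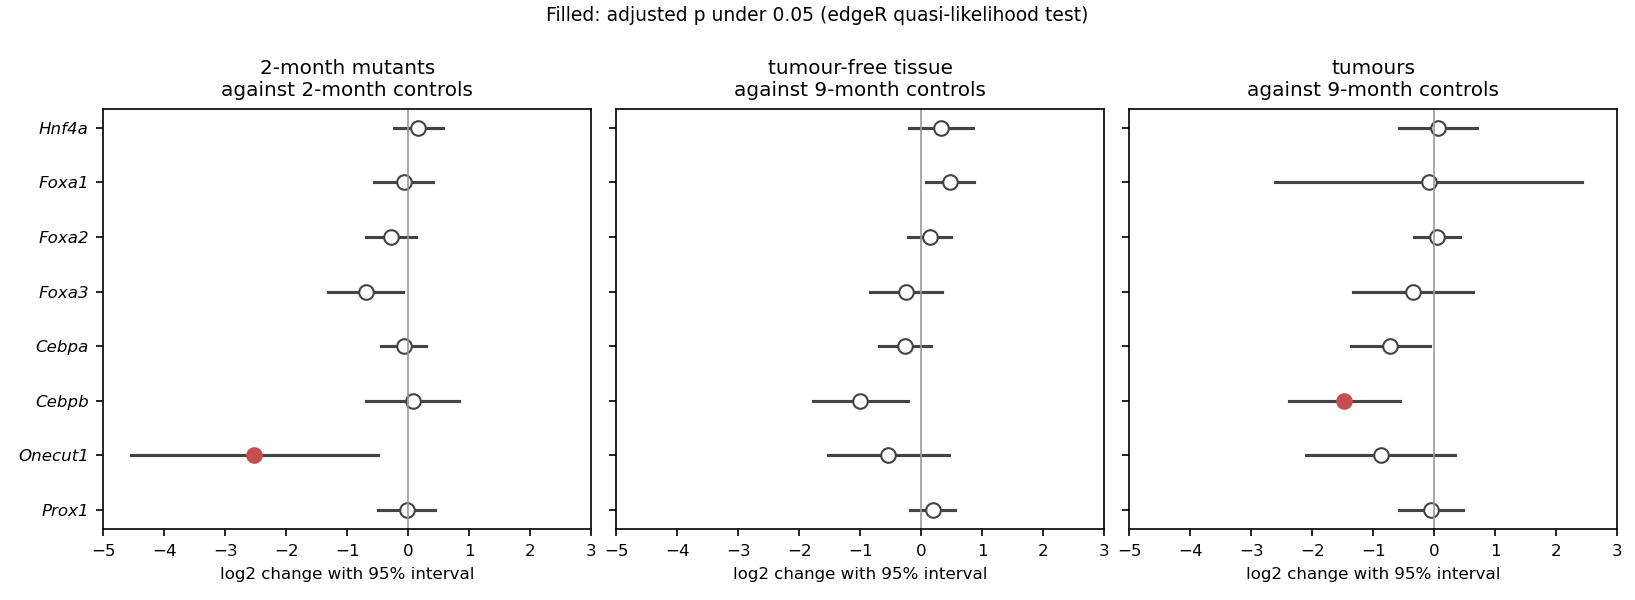
Log2 change of each gene (x axis) with its 95% interval in 2-month mutants against controls, in 9-month tumour-free tissue against controls and in tumours against the same controls. Filled points passed adjusted p under 0.05, which Onecut1 did at 2 months (-2.52) and Cebpb in tumours (-1.47). The wide interval of Foxa1 in tumours comes with 1 tumour at 0.499 CPM.

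Levels between genes were compared as CPM per kilobase of exon. Cebpa and Hnf4a were the highest of the 8, at 160 ± 35.5 and 171 ± 16.9 CPM per kilobase in 2-month mutants and 169 ± 26.4 and 153 ± 36.6 in 2-month controls (SD, n = 3 and 6). These 2 did not differ beyond their spread in either group. Cebpb followed at 41.9 ± 17.4 and 39.9 ± 14.0 CPM per kilobase, then Foxa3 at 17.8 ± 8.66 and 29.1 ± 4.58, Foxa2 at 13.4 ± 1.04 and 16.3 ± 3.80, and Prox1 at 13.0 ± 0.63 and 13.3 ± 3.74, each in 2-month mutants and then controls. Foxa3, Foxa2 and Prox1 overlapped in their spread in mutants. Foxa1 was lower, at 7.81 ± 1.04 and 8.25 ± 2.13 CPM per kilobase, and Onecut1 was the lowest of the 8 in all 5 groups, at 0.443 ± 0.152 in mutants and 2.61 ± 2.23 in controls. At 9 months Cebpb was at 40.5 ± 18.4 CPM per kilobase in tumours and 55.8 ± 26.5 in tumour-free tissue, below both Cebpa and Hnf4a. In 9-month controls it was at 111 ± 31.2, next to Hnf4a at 108 ± 33.6, and these 2 did not differ beyond their spread.

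**Figure D2:**
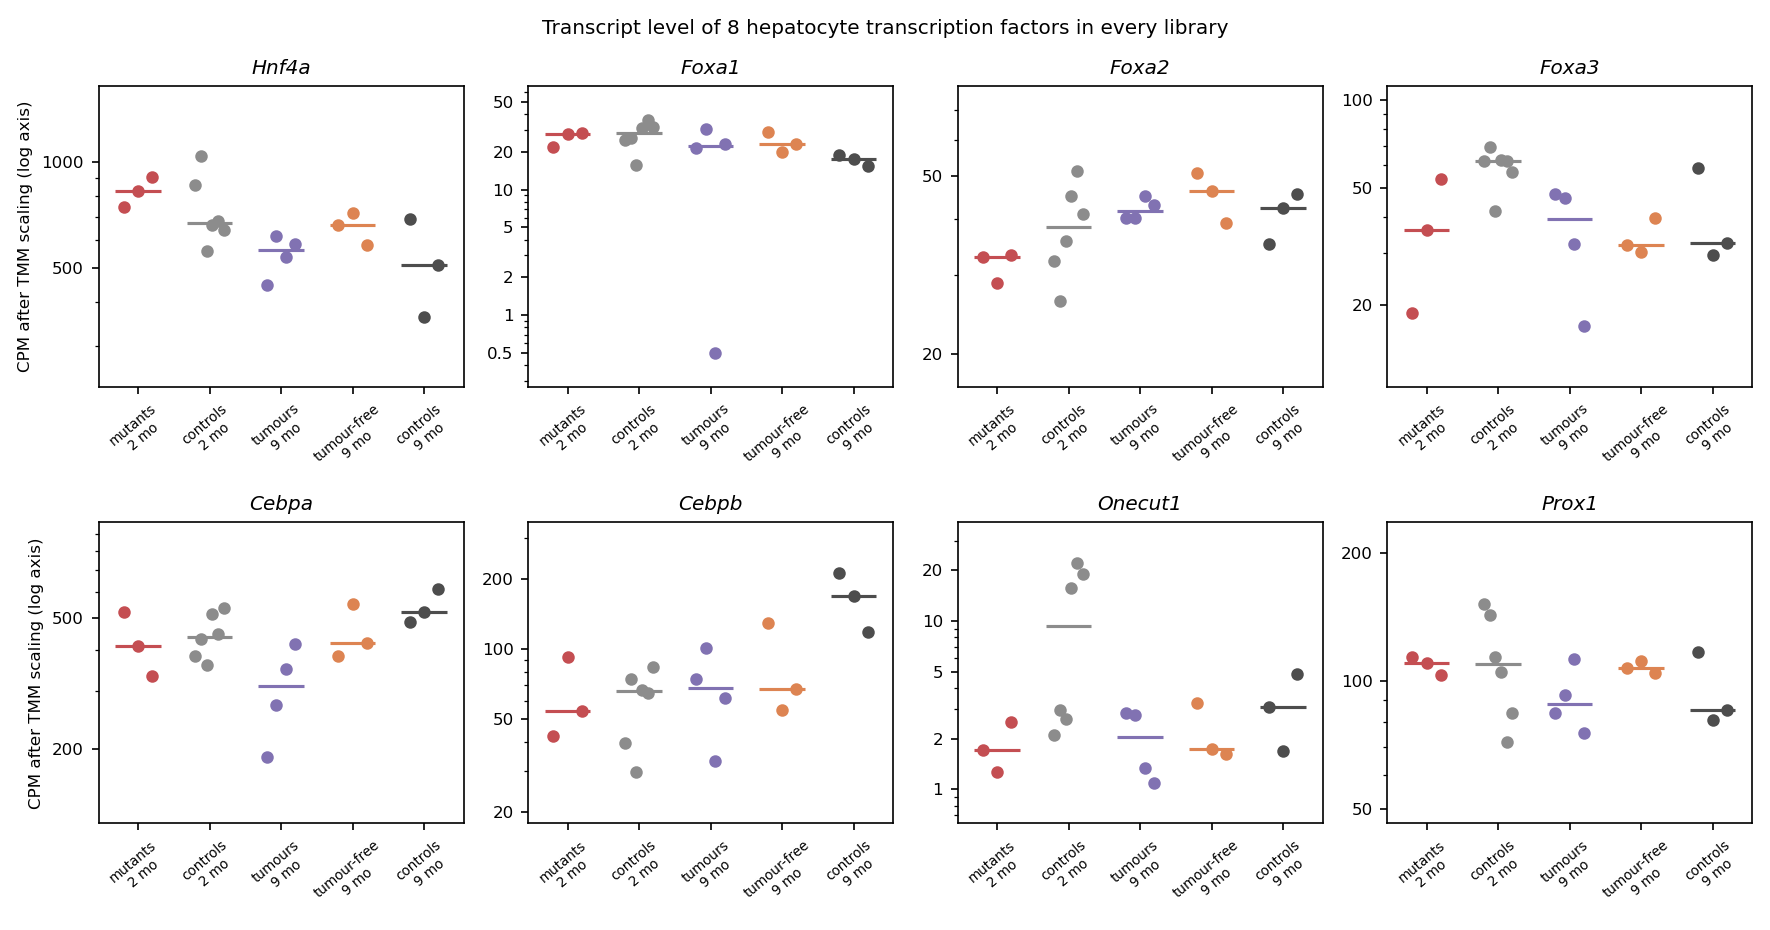
CPM after TMM scaling (log axis) of each of the 8 genes in every library, 1 point per library, with the group median as a line. Controls 4 to 6 at 2 months stand at 15.7 to 22.0 CPM for Onecut1, all 9-month controls lie above all tumours for Cebpb, and 1 tumour lies at 0.499 CPM for Foxa1.

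Hnf4a (ENSMUSG00000017950.16, GRCm38 chr2:163506808-163572910) did not pass in any comparison. The 2-month mutants had 745, 826 and 908 CPM, against a range of 559 to 1039.9 CPM and a median of 670.0 CPM in the 6 controls. The mutants lay inside the range of the controls (log2 change 0.17 ± 0.18, 95% interval -0.23 to 0.56, adjusted p = 0.493). Tumours had 447 and 616 CPM (mutant 1), 538 CPM and 585 CPM, tumour-free tissue had 662, 715 and 579.6 CPM, and the 9-month controls had 688, 364 and 509.9 CPM. All 3 groups overlapped, with a change of 0.07 ± 0.27 in tumours (adjusted p = 0.876) and 0.32 ± 0.23 in tumour-free tissue (adjusted p = 0.312).

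A transcript from the other strand of the Hnf4a locus did change. Hnf4aos, annotated as an antisense RNA, overlaps Hnf4a over 34913 bases, the upstream start included. It was at 0.827, 0.189 and 0.416 CPM in 2-month mutants, against 4.23 to 8.18 CPM in controls. No mutant reached the lowest control (log2 change -3.70 ± 0.43, adjusted p = 5.02e-05). In tumour-free tissue it was at 0.527, 0.812 and 0.353 CPM against 7.52, 6.67 and 9.08 CPM in 9-month controls (-3.76 ± 0.32, adjusted p = 8.97e-05). Tumours had 0.305, 0.0396, 0.576 and 2.32 CPM (-2.99 ± 0.86, adjusted p = 0.0461). The call in tumours was lost without any 1 of the controls (adjusted p from 0.102 to 0.129), without the tumour of mutant 2 (0.116), with no expression filter (0.137) and without the libraries numbered 1 (0.0802). The kit marks strand, but the strand setting of the counting is not given in the sources used here, so reads of Hnf4a and Hnf4aos may not have been told apart. Hnf4aos was chosen after its values were seen, as were the other neighbouring genes named below.

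Foxa1 (chr12:57540628-57546916) had 22.0, 27.8 and 28.1 CPM in 2-month mutants, against 15.6 to 36.1 CPM in controls with a median of 28.4 CPM. The change was -0.07 ± 0.22 (adjusted p = 0.814), and its direction turned without controls 4 to 6 (0.24). Tumour-free tissue had 29.0, 20.0 and 23.2 CPM, against 18.9, 17.6 and 15.5 CPM in 9-month controls. All 3 tumour-free samples were above all 3 controls, and the change of 0.47 ± 0.17 missed the threshold (unadjusted p = 0.0251, adjusted p = 0.0658). The share of all genes with such a separation was not counted.

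The tumour of mutant 2 had almost no Foxa1. It had 13 Foxa1 counts, or 0.499 CPM (exact Poisson 95% interval 0.266 to 0.853, counting error only), while the other 3 tumours had 21.5, 30.3 and 23.1 CPM and the tumour-free tissue of the same animal had 20.0 CPM. Over the other 18 libraries the lowest value was 15.5 CPM. With this tumour included the change against controls was -0.09 ± 1.04 (adjusted p = 0.962), and without it 0.51 (adjusted p = 0.097). This tumour was also low in 2 protein coding neighbours of Foxa1. Ttc6, which lies 17197 bases away and codes for a protein with tetratricopeptide repeats, had 1 count against 20 to 69 elsewhere. Slc25a21, a mitochondrial carrier of oxodicarboxylates 343156 bases away on the other side, had 0 counts, where 3 counts would be 0.115 CPM, against 23 to 407 elsewhere. Mipol1, which lies between Slc25a21 and Foxa1, was at 3.22 CPM against 1.23 to 3.63 CPM elsewhere, and Clec14a, 717804 bases away, was at 13.5 CPM against 7.29 to 15.1 CPM, both inside the range.

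Slc25a21 fell in every mutant group. It had 10.6, 7.69 and 5.23 CPM in 2-month mutants against 13.6 to 17.0 CPM in controls (log2 change -0.95 ± 0.19, adjusted p = 0.00201). In tumour-free tissue it had 6.36, 4.18 and 3.57 CPM against 19.1, 19.7 and 22.9 CPM in 9-month controls (-2.14 ± 0.23, adjusted p = 0.000278), and in tumours 2.83, 3.37, 0 and 1.01 CPM (-3.87 ± 1.09, adjusted p = 0.0461). The tumour call was lost without any 1 of the controls (adjusted p from 0.101 to 0.133), without the tumour of mutant 3 (0.130) and in other settings, and the 2-month call in 1 fit over all 5 groups (0.182).

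The same tumour stood apart in genes of Kupffer cells, the resident macrophages of liver. The 3 protein coding genes with the level most like that of Foxa1 over the 18 samples (mutant 1's tumours summed, 9930 genes ranked) were Clec4f, a Kupffer cell lectin (Pearson r = 0.959 of log2 CPM), Timd4, a receptor for dying cells (0.951), and Cd5l, a secreted macrophage protein (0.948). Together with Fcna, Folr2 and Vsig4, the next 3, they summed to 6.14 CPM in the tumour of mutant 2 and to 153 to 606 CPM in the other 18 libraries. These 6 genes were picked by their likeness to Foxa1 with this tumour included. Their low sum in a tumour with almost no Foxa1 thus follows in part from the choice. Without that tumour the r of these 6 genes with Foxa1 ran from 0.32 to 0.57, and the genes most like Foxa1 were Fubp1 (0.845), Tarbp1 (0.818) and Nol8 (0.809). Not all macrophage transcripts were low there. Cd68, a lysosomal marker, had 150.4 CPM in that tumour against 10.5 to 15.9 CPM in 9-month controls. The macrophage marker Adgre1 had 27.1 CPM there against 7.95 to 8.73 CPM in those controls, and Csf1r had 84.3 CPM against 42.7 to 49.3 CPM. Whether these values belong together was not tested.

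**Figure D3:**
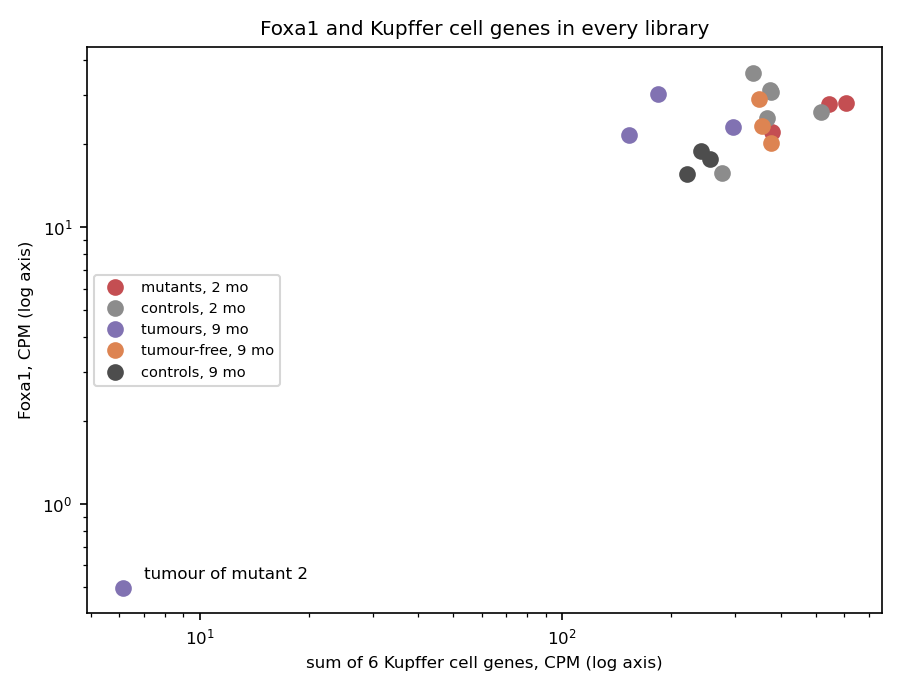
Foxa1 (y axis, CPM, log) against the sum of the 6 Kupffer cell genes Clec4f, Timd4, Cd5l, Fcna, Folr2 and Vsig4 (x axis, CPM, log), 1 point per library, coloured by group. The tumour of mutant 2 lies at 0.499 and 6.14 CPM and the other 18 libraries lie together at the upper right. The 6 genes were picked by their likeness to Foxa1 with this tumour included, so its place follows in part from the choice.

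Foxa2 (chr2:148042877-148046969) had 32.9, 28.8 and 33.2 CPM in 2-month mutants, against 26.2 to 51.2 CPM (median 38.4 CPM) in controls, a change of -0.28 ± 0.18 (adjusted p = 0.248). Tumours had 40.2 to 45.0 CPM, tumour-free tissue 39.2 to 50.8 CPM and controls 35.2 to 45.4 CPM, and these groups overlapped. The interval in tumours, -0.34 to 0.42, is the narrowest of the 8 in that comparison. At 2 months Foxa2 passed when controls 1 to 3 were left out (-0.53, adjusted p = 0.00802). The long intergenic RNA 9030622O22Rik, 2674 bases from Foxa2, fell at 2 months, to 3.28 to 4.37 CPM in mutants against 6.26 to 15.1 CPM in controls (-1.43 ± 0.29, adjusted p = 0.00234).

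Foxa3 (chr7:19013284-19023538), the family member that is most restricted to endoderm, had 18.7, 36.1 and 54.0 CPM in 2-month mutants, against 42.0 to 69.5 CPM (median 62.2 CPM) in controls. Mutants 1 and 2 lay below all 6 controls, and mutant 3 lay inside their range. The change of -0.70 ± 0.28 missed the threshold in the main test (adjusted p = 0.0657) and passed with DESeq2 (0.0241), with limma voom (0.0384), without mutant 3 (0.00907) and without control 3 (0.0417). At 9 months tumours had 16.9 to 47.8 CPM, tumour-free tissue 30.4 to 39.8 CPM and controls 29.7 to 58.8 CPM, with adjusted p = 0.574 and 0.503.

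Within the FOXA family, Foxa1 made up 17.3% to 22.3% of the summed CPM per kilobase in 2-month mutants and 11.6% to 17.2% in controls. All 3 mutants lay above all 6 controls in this share, but mutant 3 at 17.26% was next to control 6 at 17.22%. The level of Foxa1 itself was not higher in mutants (26.0 ± 3.45 CPM against 27.4 ± 7.07 CPM in controls). Foxa3 had a share of 31.0% to 54.1% in mutants and 48.5% to 64.4% in controls. Foxa1 had a share of 14.9% to 19.0% in tumour-free tissue and 11.5% to 14.0% in 9-month controls, again without overlap. In tumours the share ran from 0.428% to 20.7%. These shares were looked at after the values were seen and were not tested.

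Cebpa (chr7:35119293-35121928) had 519.6, 411 and 334 CPM in 2-month mutants, against 359.6 to 535 CPM (median 438 CPM) in controls, a change of -0.07 ± 0.17 (adjusted p = 0.755). Tumours had 189 and 271 CPM (mutant 1), 349.9 CPM and 416 CPM, tumour-free tissue had 383, 551 and 420.3 CPM, and 9-month controls had 486, 519 and 612 CPM. All 4 tumours lay below all 3 controls, a separation whose share over all genes was not counted. The change of -0.72 ± 0.28 missed the threshold (unadjusted p = 0.0339, adjusted p = 0.0968). It passed with DESeq2 (adjusted p = 0.0431) and in 1 fit over all 5 groups (0.0176). Tumour-free tissue overlapped with the controls (-0.26 ± 0.18, adjusted p = 0.306). Gm45091, an antisense RNA that shares 313 bases with Cebpa, was at 0.185 to 0.886 CPM in 2-month mutants against 0.705 to 3.10 CPM in controls (-1.82 ± 0.53, adjusted p = 0.0174), a call that was lost without controls 4 to 6 (0.0643), without mutant 2 (0.0584) and without mutant 3 (0.0778). In tumour-free tissue Gm45091 passed narrowly (-1.48 ± 0.49, adjusted p = 0.0461, 0.0811 to 0.150 in the leave-outs that lost it), and in tumours it did not (adjusted p = 0.222).

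Cebpb (chr2:167688915-167690418), a gene of 1 exon, passed in tumours and in no other comparison. It had 42.3, 92.4 and 54.3 CPM in 2-month mutants, against 29.5 to 84.3 CPM (median 66.0 CPM) in controls (0.07 ± 0.34, adjusted p = 0.883). At 9 months tumours had 74.6 and 102 CPM (mutant 1), 33.0 CPM and 61.5 CPM, tumour-free tissue had 129, 54.7 and 67.8 CPM, and controls had 212, 169.9 and 119 CPM. All 4 tumours lay below all 3 controls, again with the share over all genes not counted, and the change of -1.47 ± 0.39 passed (adjusted p = 0.0325). Tumour-free tissue overlapped with controls only through the sample of mutant 1 and missed the threshold (-1.00 ± 0.34, adjusted p = 0.0527). Without that sample it passed (-1.44, adjusted p = 0.00522), and it also passed with DESeq2 (0.0103), limma voom (0.0428), and without all libraries numbered 1 (0.00644). The tumour call was lost without any 1 of the controls (adjusted p from 0.0550 to 0.103), without the tumour of mutant 3 (0.0784), without the libraries numbered 1 (0.0534) and with library size alone (0.0721). The libraries numbered 1 at 9 months had the highest Cebpb of the tumour, tumour-free and control groups, both tumours of mutant 1 included. Their immediate early genes summed to 1359 to 1736 CPM in tumours, 1084 CPM in tumour-free tissue and 3757 CPM in the control. The other 9-month libraries had 169 to 281 CPM. Without the libraries numbered 1 the change was -1.63 in tumours and -1.25 in tumour-free tissue. The part of the immediate early genes in the Cebpb values was not tested.

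The change of Cebpb in tumour-free tissue against its change at 2 months differed by -1.07 ± 0.54, which did not pass (adjusted p = 0.454). The ratio of Cebpb to Cebpa counts was 0.0815 to 0.225 in 2-month mutants and 0.0822 to 0.173 in controls. It was 0.0942 to 0.396 in tumours, 0.0993 to 0.338 in tumour-free tissue and 0.194 to 0.436 in 9-month controls, so that the groups overlapped at both times. Tmem189, which makes a plasmanylethanolamine desaturase, overlaps Cebpb over 908 bases on the other strand. Tmem189 rose at 2 months, to 42.0 to 70.1 CPM in mutants against 9.87 to 17.6 CPM in controls (1.87 ± 0.19, adjusted p = 1.91e-05). This change exceeded the one in tumour-free tissue (difference -1.38 ± 0.28, adjusted p = 0.0192), which did not pass (0.49 ± 0.17, adjusted p = 0.0586). Reads in the shared bases may count for either gene if the counting did not use strand.

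Onecut1 (chr9:74861921-74891781) was the only one of the 8 called at 2 months. It had 1.71, 1.26 and 2.50 CPM in mutants. Controls 1 to 3 had 2.09 to 2.96 CPM, and controls 4, 5 and 6 had 15.7, 22.0 and 19.1 CPM. Controls 4 to 6 thus lay far above controls 1 to 3, whose range overlapped with that of the mutants. The fitted change was -2.52 ± 0.90 (adjusted p = 0.0469). Without controls 4 to 6 it was -0.46 (adjusted p = 0.322), and without controls 1 to 3 it was -3.34 (adjusted p = 5.09e-05). The call was also lost with limma voom (0.201), with no expression filter (0.154), without any 1 of the mutants (0.114 to 0.143) and without control 4, 5 or 6 (0.0608 to 0.0741). The labels do not say how controls 4 to 6 differ from the others.

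Controls 4 to 6 differed from controls 1 to 3 in other values too. Foxa1 (30.8 to 36.1 against 15.6 to 25.9 CPM), Foxa2 (41.0 to 51.2 against 26.2 to 35.8 CPM) and Cebpa (445 to 535 against 359.6 to 431 CPM) lay higher in controls 4 to 6 with no overlap, and Prox1 (72.1 to 105 against 114 to 151 CPM) lay lower. Over 10181 genes with a mean of at least 5 CPM, 21.3% kept these control sets apart in the same way (822 higher and 1350 lower in controls 4 to 6). In rat liver, pulses of growth hormone acting through STAT5 are known to raise HNF6. Cish, a feedback inhibitor that STAT5 induces, was at 9.45 to 34.9 CPM in mutants, against 47.0 to 71.4 CPM in controls 4 to 6 and 7.25 to 9.72 CPM in controls 1 to 3. Bcl6, a repressor that competes with STAT5, was at 11.0 to 61.8 CPM in mutants, against 13.3 to 21.1 CPM in controls 4 to 6 and 77.2 to 117 CPM in controls 1 to 3. These genes were chosen after the Onecut1 values were seen, and their part in the Onecut1 values was not tested.

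Gm16551, a noncoding transcript that ends 1787 bases before Onecut1 on the same strand, fell with no overlap at 2 months. It had 1.30, 1.01 and 1.34 CPM in mutants, against 6.87, 9.16, 5.35, 12.6, 29.7 and 15.2 CPM in controls 1 to 6 (-3.41 ± 0.60, adjusted p = 0.00122). Here controls 1 to 3 also lay above all mutants. It fell in tumour-free tissue too, to 1.10, 0.271 and 0.309 CPM against 2.31, 2.71 and 2.54 CPM in controls (-2.18 ± 0.52, adjusted p = 0.0125, 0.0517 in 1 fit over all 5 groups). Tumours had 3.31, 1.66, 0.422 and 0.132 CPM of Gm16551, with 1 tumour above all controls, and did not pass (-1.30 ± 0.88, adjusted p = 0.316). Onecut1 itself was at 2.83, 2.77, 1.34 and 1.10 CPM in tumours, 3.25, 1.74 and 1.63 CPM in tumour-free tissue and 3.07, 1.70 and 4.85 CPM in 9-month controls, and these groups overlapped (adjusted p = 0.251 and 0.366). Gm20649, an annotated RNA that shares 29556 bases with Onecut1 on the same strand, was at 0 in all libraries, so its reads, if any, may stand under Onecut1.

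**Figure D4:**
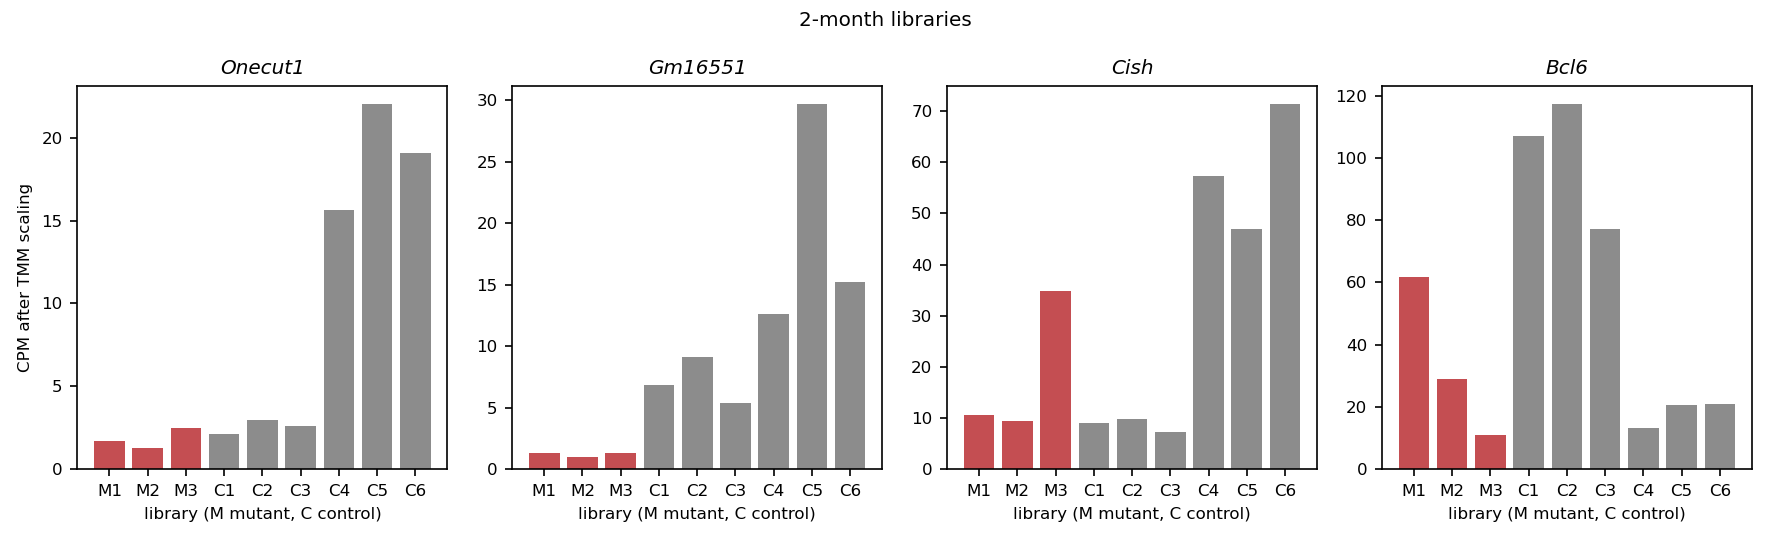
CPM after TMM scaling in the 3 mutant (M) and 6 control (C) libraries at 2 months. Onecut1 is at 15.7 to 22.0 CPM in controls 4 to 6 and at most 2.96 CPM elsewhere, Gm16551 is lower in all mutants than in all controls, and Cish and Bcl6 split the controls in opposite directions.

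Prox1 (chr1:190118035-190170714) had 114, 110.0 and 103 CPM in 2-month mutants, against 72.1 to 151 CPM (median 109 CPM) in controls, with a change of -0.03 ± 0.21 (adjusted p = 0.928). Tumours had 75.4 to 113 CPM, tumour-free tissue 104 to 112 CPM and 9-month controls 81.0 to 117 CPM (adjusted p = 0.889 and 0.406). Prox1os, an antisense RNA that shares 419 bases with Prox1, was lower in every mutant group. It had 7.03, 4.73 and 3.70 CPM in 2-month mutants against 6.82 to 12.3 CPM in controls (-0.76 ± 0.25, adjusted p = 0.0310), a call lost without mutant 2 (0.0967) or 3 (0.139), without control 1 (0.0523) or 5 (0.0595), and in other settings. It had 2.76, 2.44 and 4.72 CPM in tumour-free tissue against 11.5, 8.31 and 11.4 CPM in 9-month controls (-1.66 ± 0.29, adjusted p = 0.00284) and 1.05 to 4.41 CPM in tumours (-2.07 ± 0.50, adjusted p = 0.0235). The tumour call was lost without any 1 of the controls (0.0596 to 0.0822), without the tumours of mutant 1 (0.0649) and without the libraries numbered 1 (0.145).

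Between tumours and tumour-free tissue, in a fit without the animal as a term, 0 of the 8 passed, where 0.0137% of 14566 genes did, and 0 had an unadjusted p under 0.05. DESeq2 and limma voom called 0 of the 8 there too. The changes ran from -0.54 ± 1.05 for Foxa1 to -0.09 ± 0.15 for Foxa2, all below 0, with a median absolute change of 0.29 against 0.22 over all genes. Of these 8 intervals, 4 lay within a 2-fold change (Hnf4a, Foxa2, Foxa3 and Prox1), against 58.5% of all genes. Foxa1 without the tumour of mutant 2 was at 0.03. For Cebpa, Cebpb and Onecut1 every tumour lay below the tumour-free tissue of its own animal. The share of all genes with this pattern was not counted, so for 3 animals this is a description only. With the animal as a block 0 of the 8 passed too (adjusted p from 0.457 for Cebpb to 0.904 for Foxa3), and the fitted change of Foxa1 was -1.32. For the difference of the tumour-free effect from the 2-month effect 0 of the 8 passed, where 1.52% of 14707 genes did, and 0 had an unadjusted p under 0.05. Onecut1 had the largest of these differences (1.99 ± 1.16, adjusted p = 0.537). It was -0.08 without 2-month controls 4 to 6 and 2.81 without controls 1 to 3 (adjusted p = 0.0226).

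The 8 transcripts did not move as 1 block over the 18 samples. The highest Pearson r of log2 CPM between 2 of them was 0.60, between Hnf4a and Prox1, followed by 0.59 between Foxa3 and Onecut1, and the lowest was -0.64, between Foxa2 and Prox1. The samples share groups and sequencing runs, so these values are descriptions. Over the same samples the genes most like Hnf4a were Tle4, a corepressor (r = 0.892), Sec16a, of the endoplasmic reticulum exit sites (0.886), and Ppme1, a phosphatase methylesterase (0.877). Those most like Foxa2 were Tarbp2, Nup205 and Tet2 (0.732, 0.686 and 0.684), and those most like Foxa3 were Zfp12, Naa16 and Ints8 (0.908, 0.858 and 0.855). Cebpa was most like Gorasp1, Hectd3 and Inhbe (0.817, 0.812 and 0.770), and Cebpb most like Lpin1, a phosphatidate phosphatase, Tob1, an antiproliferative protein, and Glrx3 (0.871, 0.868 and 0.849). Onecut1 was most like Mup7, a major urinary protein of male liver, Arid5b and Zfp809 (0.902, 0.894 and 0.879), and Prox1 most like Egln3, Snx18 and Atxn1 (0.842, 0.770 and 0.760). Without 2-month controls 4 to 6 the genes most like Onecut1 were Prmt9, Tcp1 and Ldah (0.817, 0.772 and 0.772).

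Other regulators of the hepatocyte programme were tested as a list, chosen, like the lists below, with earlier results of these data known. Over all genes 22.3% rose and 20.4% fell at 2 months, 18.1% and 16.8% in tumour-free tissue, and 13.8% and 11.3% in tumours. Of 24 liver-enriched factors and nuclear receptors tested, 13 fell and 3 rose at 2 months, 9 fell and 1 rose in tumour-free tissue, and 8 fell and 1 rose in tumours. Without control 1 or control 3 the fallen in tumours were 4. The median log2 change of the 24 was -0.43 at 2 months, against 0.01 over all genes. Nr1i3, the receptor CAR that senses drugs, fell to 53.4 ± 37.5 CPM in 2-month mutants, against 399 ± 119 CPM in controls (-2.90 ± 0.46, adjusted p = 0.000615). It fell in tumour-free tissue to 62.3 ± 12.8 CPM against 721 ± 203 CPM (-3.54 ± 0.28, adjusted p = 5.67e-05). Nr1h3, the oxysterol receptor LXR-alpha, fell by 0.66 ± 0.10 on the log2 scale at 2 months (adjusted p = 0.000248). Nr0b2, the bile acid induced corepressor SHP, and Ppargc1a, a coactivator of HNF4A, fell in tumour-free tissue by 1.35 ± 0.17 and 1.60 ± 0.26. Gata6, a factor of early endoderm and of several other liver cell types, rose by 1.88 ± 0.18 at 2 months and 1.63 ± 0.26 in tumour-free tissue, and Cebpd, a C/EBP family member of the acute phase, rose at 2 months by 2.02 ± 0.29. With library size alone the fallen regulators were 6, 3 and 3 in the 3 comparisons, and those that rose were 3 in tumour-free tissue and 2 in tumours.

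Textbook targets of the 8 factors were tested in the same fits. Of 25 HNF4A targets, 12 fell and 2 rose at 2 months, 11 fell and 1 rose in tumour-free tissue, and 10 fell and 0 rose in tumours. The 10 that fell in tumours were 6 without control 1, 5 without control 3 and 16 in 1 fit over all 5 groups, and with library size alone 4, 2 and 2 rose in the 3 comparisons. Cyp8b1, the sterol 12-alpha-hydroxylase of bile acid synthesis, fell to 3.27 ± 1.88 CPM in 2-month mutants, against 440 ± 171 CPM in controls (-7.04 ± 0.55, adjusted p = 4.91e-06). Otc, of the urea cycle, fell to 41.5 ± 16.4 CPM in mutants against 676 ± 39.2 CPM in controls (-4.02 ± 0.24, adjusted p = 3.37e-07), and the bile acid carrier Slc10a1 fell by 1.59 ± 0.15. The 2 that rose at 2 months, named after their values were seen, were the apolipoprotein genes Apoa4 (5.78 ± 0.61) and Apob (1.11 ± 0.11).

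Of 10 C/EBP-alpha targets, 6 fell and 0 rose at 2 months, 5 fell and 0 rose in tumour-free tissue and 4 fell and 0 rose in tumours. Ugt2b1, a glucuronosyltransferase, fell by 4.03 ± 0.40 at 2 months, and Gys2, the liver glycogen synthase, fell by 2.08 ± 0.23 in tumour-free tissue. Of 12 FOXA targets, 6 fell and 0 rose at 2 months, 5 fell and 2 rose in tumour-free tissue and 5 fell and 0 rose in tumours. The 5 that fell in tumours were 3 without control 1 and 2 without control 3, and 1 rose in tumour-free tissue without any 1 of the controls. The 2 that rose in tumour-free tissue were the fetal serum protein gene Afp (3.57 ± 0.66, adjusted p = 0.0533 with no expression filter) and Igfbp1 (1.97 ± 0.53). In that comparison 18.1% of all genes rose. The lists share genes: Alb, Ttr, Pck1, G6pc and Tat stand in more than 1 of them.

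Targets of C/EBP-beta, most of them acute phase proteins, passed in both directions. Of 12, 5 fell and 3 rose at 2 months, 7 fell and 1 rose in tumour-free tissue, and 1 fell and 1 rose in tumours, where Cebpb itself fell. Over all genes 22.3% rose at 2 months and 18.1% in tumour-free tissue, and 13.8% rose and 11.3% fell in tumours. The rises among the targets were thus near or below the share of all genes. With library size alone 5 rose in tumour-free tissue, and without control 1 or control 3 0 passed in tumours. Haptoglobin (Hp) fell by 2.21 ± 0.21 at 2 months and by 2.22 ± 0.21 in tumour-free tissue. Saa1, a serum amyloid gene, was at 16.0 to 39.8 CPM in 2-month mutants and 19.2 to 60.1 CPM in controls (adjusted p = 0.722) and fell in tumour-free tissue to 19.6 ± 0.96 CPM against 79.9 ± 11.4 CPM in controls (-2.04 ± 0.15, adjusted p = 4.04e-05). Orm2, an acid glycoprotein gene, rose at 2 months by 4.78 ± 0.46. Saa and Orm genes have close copies in the genome, so reads may be split between them. Of 9 HNF6 targets, among them Hnf4a and Foxa2, 2 fell and 0 rose at 2 months, 3 fell and 0 rose in tumour-free tissue, and 3 fell and 1 rose in tumours. The 2 of 9 at 2 months stand beside 20.4% of all genes lower there. With library size alone 1 of the 9 rose at 2 months and 3 in tumour-free tissue, and without control 1 or control 3 only 1 fell in tumours. Pfkfb1, a glycolytic control enzyme, fell by 2.65 ± 0.26 at 2 months, to 7.80 ± 3.08 CPM in mutants against 48.8 ± 7.97 CPM in controls.

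Genes that oppose these factors, or that mark other epithelia, made up the last lists. Of 10 repressors and inhibitors of HNF4A or C/EBP factors, 1 rose and 0 fell at 2 months, 2 rose and 0 fell in tumour-free tissue, and 2 rose and 1 fell in tumours. Over all genes 22.3%, 18.1% and 13.8% rose in these comparisons. With library size alone 4 of the 10 rose at 2 months and 4 in tumours. With 1 library left out, 0 to 2 rose at 2 months, 0 to 1 in tumour-free tissue and 0 to 2 in tumours. Trib2, a pseudokinase that sends C/EBP-alpha to degradation, was higher by 0.88 ± 0.30 at 2 months (adjusted p = 0.0342, 0.332 without mutant 3 and also above the threshold in other settings). Zeb2 was higher by 0.51 ± 0.16 in tumour-free tissue (adjusted p = 0.0351, 0.0560 to 0.123 without any 1 control). Of 12 transcription factors of bile duct, progenitor or gut epithelium, 6 had enough counts to test at 2 months and 7 at 9 months. At 2 months 2 of the 6 rose, and at 9 months 2 of the 7 rose in tumour-free tissue and 4 of the 7 in tumours, and 0 fell in either. The 4 in tumours were 2 without control 1 and 1 without control 2 or control 3, and with library size alone 4 rose at 2 months and 4 in tumour-free tissue. Elf3, an epithelial ETS factor, rose to 4.44 ± 2.75 CPM in 2-month mutants against 0.989 ± 0.29 CPM in controls (2.18 ± 0.37, adjusted p = 0.000764). Sox4, a progenitor factor, rose by 1.19 ± 0.35 at 2 months (adjusted p = 0.0191, 0.187 without mutant 3, 0.0569 without controls 4 to 6 and 0.105 without controls 1 to 3) and by 1.29 ± 0.28 in tumour-free tissue (adjusted p = 0.00865, 0.0626 in 1 fit over all 5 groups). Onecut2, the paralogue of Onecut1, was at 107 ± 8.47 CPM in 2-month mutants and 87.4 ± 16.3 CPM in controls (0.29 ± 0.15, adjusted p = 0.138).

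**Figure D5:**
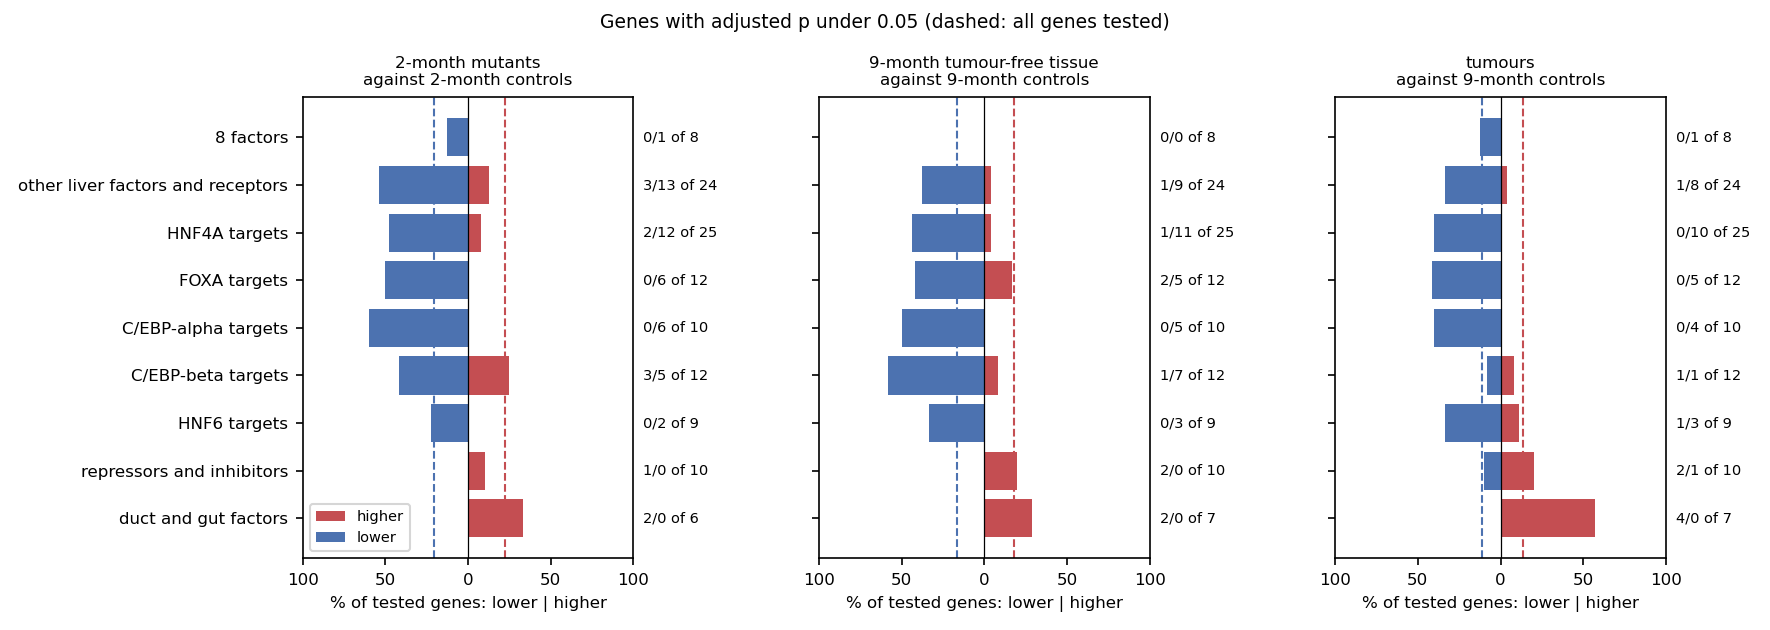
Share of tested genes of each list that passed adjusted p under 0.05, higher to the right and lower to the left, in 2-month mutants, 9-month tumour-free tissue and tumours, each against its controls, with counts higher/lower of tested. Dashed lines give the shares over all genes tested (22.3% higher and 20.4% lower at 2 months). The bar of the 8 factors is 1 lower of 8 at 2 months, while 13 of 24 other regulators and 12 of 25 HNF4A targets are lower.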

How the data were processed

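Poly(A) RNA of 19 liver libraries was sequenced from a stranded kit, per the labels' protocols. The authors deposited 1 table of whole-number counts per gene (55421 genes, 24684 of them at 0 in all libraries), and no column of it was left unused. STAR 2.6.1a, RSEM, bedtools 2.27.1, DESeq2 1.22.2 and the builds GRCm38 and mm10 are named in the submitters' processing notes, without their roles. The counts may thus be rounded estimates, and the strand setting of the counting is not stated there.

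The counts were tested with edgeR 4.0.16 in R 4.3.3 (TMM, filterByExpr, robust quasi-likelihood test, Benjamini-Hochberg over all genes tested, threshold 0.05). A fit held only the groups it compared, and the 2 tumours of mutant 1 were summed. The SE is the log2 change divided by the root of F. Alternatives were DESeq2 1.42.0, limma 3.58.1 voom, scaling by library size, no filter, a fit over 5 groups, a replicate or animal block, and leaving out libraries. The procedure was tested on simulated data. No 2 libraries held identical counts. Tumours and tumour-free tissue came from the same animals, and their deviations from the group means correlated at 0.225, 0.307 and 0.0334. Positions are from the GENCODE annotation of GRCm38, and promoter windows from RefSeq.

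The members and lists were chosen with earlier results of these data known. Beside the 8 genes, the text names the 3 protein coding genes most like each of them (mean of at least 5 CPM, prior count 2), and up to 4 genes per list with the smallest adjusted p at 2 months and in tumour-free tissue. Lists of at most 12 genes could be named in full, and exceptions are marked as chosen after their values were seen. Intervals on counts cover counting error only. Some results are not reported here.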

Additional observations from a re-analysis of the deposited data

Results flagged for a closer look

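Chance alone marks about 1 in 20 groups as holding a library far from the others. Many genes were scanned in this way. Among the 4 tumours, Timd4 had a gap from the lowest library to its nearest neighbour of 0.991 of the group's whole range, and Ttc6 one of 0.860, in both cases at the tumour of mutant 2. Timd4 was named for a likeness to Foxa1 whose r fell from 0.951 to 0.554 without this tumour. Ttc6 was chosen after its values were seen. The rate of 1 in 20 therefore does not hold for either gene. Among the 6 controls at 2 months, Cd5l had a gap of 0.665 at control 2, the highest at 187 CPM.

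The change in tumour-free tissue differed from the change at 2 months, by edgeR's test of the difference with Benjamini-Hochberg adjustment over all genes, for 4 genes among those named or listed. For Tmem189 the difference was -1.38 ± 0.28 (adjusted p = 0.0192), with all 3 mutant samples above all controls at both times. Its change in tumour-free tissue, 0.49 ± 0.17, did not pass (adjusted p = 0.0586). Controls were at 14.2 ± 2.64 CPM at 2 months and 30.4 ± 6.48 CPM at 9 months. Mutants were at 51.7 ± 15.9 CPM at 2 months, and tumour-free tissue was at 42.8 ± 2.90 CPM. For Apoa4 it was -4.01 ± 0.85 (adjusted p = 0.0331), with a change of 1.76 ± 0.39 in tumour-free tissue and 5.78 ± 0.61 at 2 months. For Afp it was 4.80 ± 0.84 (adjusted p = 0.00895), with a change of 3.57 ± 0.66 in tumour-free tissue, which passed, and -1.22 ± 0.48 at 2 months, which did not (adjusted p = 0.0599). For Ahsg, the gene of fetuin-A and one of the hepatocyte markers, it was 0.97 ± 0.20 (adjusted p = 0.0249), with 0.86 ± 0.19 in tumour-free tissue and -0.10 ± 0.11 at 2 months. The time points were sequenced in separate runs, and their part in these differences cannot be told apart.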

How the results depend on the processing

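Over 696 alternative values of the 8 genes, 614 kept their direction and side of the threshold, 17 passed it, 16 no longer passed and 49 turned direction. The cause was not tested in any case. Changes of the 8 genes turned as follows, most of them near 0. At 2 months Prox1 was 0.023 with limma voom. With library size alone Foxa1, Cebpa and Prox1 were 0.20, 0.19 and 0.25. Without controls 4 to 6 Foxa1, Foxa2 and Cebpa were 0.24, 0.011 and 0.11, and without controls 1 to 3 Cebpb and Prox1 were -0.20 and 0.32. In tumour-free tissue Foxa3 and Cebpa were 0.20 and 0.18 with library size alone, and Foxa2 and Foxa3 were -0.053 and 0.16 without the libraries numbered 1. In tumours Foxa1, Foxa3 and Prox1 were 0.36, 0.14 and 0.42 with library size alone, Foxa1 was 0.090 with the tumours of mutant 1 kept apart, and Foxa2 and Prox1 were -0.018 and 0.16 without the libraries numbered 1. Between tumours and tumour-free tissue Foxa3 was 0.066 with the tumours kept apart and Foxa2 was 0.038 without the libraries numbered 1. In the difference of effects Onecut1 was -0.078 without controls 4 to 6 and Prox1 was -0.13 without controls 1 to 3.

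Replicate numbers did not pair all samples between genotypes. Same-numbered deviations correlated at -0.109, 0.239 and -0.222 at 2 months. With controls they correlated at 0.309, 0.00835 and -0.0193 in tumour-free tissue and at 0.113, -0.0251 and -0.0316 in tumours. The values 0.309 and 0.113, both for number 1, were the highest of all pairs in their comparisons. These libraries also shared the high immediate early sums given with Cebpb. At 2 months the highest value, 0.320, was between mutant 1 and control 3. Whether the libraries numbered 1 share a cause was not tested. With the replicate block the genes called at 2 months were 3290, with 0 of the 8 (Onecut1 -0.48, Foxa1 0.27, Foxa2 0.034, Cebpa 0.10). The block called 1 of the 8 in tumour-free tissue (Cebpb -1.05), 54 genes in the difference of effects, and, with the animal as block, 1 gene between tumours and tumour-free tissue. It changed no other call of the 8.

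Of the 8, the number called at 2 months was 2 with DESeq2, 0 with no filter, 0 without controls 4 to 6 and 2 without controls 1 to 3. In tumour-free tissue it was 1 with DESeq2, 1 with limma voom, 4 with library size alone and 1 without the libraries numbered 1. In tumours it was 2 with DESeq2, 0 with library size alone, 2 in the fit over 5 groups and 0 without the libraries numbered 1. In the difference of effects it was 1 without controls 1 to 3. Genes called in tumours were 5482 with library size alone, 6612 in the fit over 5 groups and 1743 without the libraries numbered 1. Between tumours and tumour-free tissue they were 442 with DESeq2, 0 with limma voom, 47 with no filter, 380 in the fit over 5 groups and 0 without the libraries numbered 1. In the difference of effects they were 534 with DESeq2, 54 in the fit over 5 groups and 128 without controls 4 to 6. Library size alone also moved the split of higher against lower calls to 5445 and 1562 at 2 months, 5706 and 1178 in tumour-free tissue and 4664 and 818 in tumours, against 3067 and 2816, 2599 and 2410, and 1971 and 1622.

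With 1 library left out at a time, genes called ranged from 4324 to 5832 at 2 months, 3351 to 4870 in tumour-free tissue, 1419 to 3566 in tumours, 0 to 63 between tumours and tumour-free tissue and 110 to 293 in the difference of effects, and the 8 had 0 to 2, 0 to 1, 0 to 1, 0 and 0 calls. At 2 months Foxa1 ranged from -0.20 to 0.027, Cebpa from -0.26 to 0.070, Cebpb from -0.31 to 0.29 and Prox1 from -0.13 to 0.081. In tumour-free tissue Foxa3 ranged from -0.42 to 0.12. In tumours Hnf4a ranged from -0.14 to 0.31, Foxa1 from -0.56 to 0.51, Foxa2 from -0.070 to 0.11, Foxa3 from -0.70 to 0.011 and Prox1 from -0.20 to 0.12. Between tumours and tumour-free tissue Foxa1 ranged from -1.04 to 0.025, Foxa3 from -0.48 to 0.21 and Onecut1 from -0.86 to 0.054. In the difference of effects Hnf4a ranged from -0.042 to 0.41 and Cebpa from -0.32 to 0.035.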
